A study of Erigeron canadensis with 32 samples.

Results

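The AUX/IAA repressor genes of *Erigeron canadensis* (horseweed) described here are 8 of the 54498 genes in the count table and were taken by their identifiers. All 8 are among the 25 genes of the table whose best Arabidopsis hit is an AUX/IAA gene. By that hit they are ATAUX2-11 (HW_4976_g), IAA29 (HW_50873_g), IAA9 (HW_49729_g), IAA32 (HW_13742_g), SHY2 (HW_5689_g) and 3 genes matching IAA13 (HW_49852_g, HW_27084_g and HW_32535_g). Transcripts were counted by RNA-seq in 32 libraries, 4 in each of 8 groups: leaves that received Water, 2,4-D, Dicamba or Halauxifen-methyl as a spray and were collected 1 or 6 h after treatment (HAT). Each library came from a single leaf of a separate greenhouse plant at the rosette stage, from 1 glyphosate-resistant biotype. Every spray, Water included, carried a non-ionic surfactant, so the Water groups control for the surfactant as well. Each herbicide was applied at its own labelled field rate and these rates differ, so herbicides were compared as applied, not dose for dose. 2,4-D is a phenoxyacetic acid, dicamba a benzoic acid and halauxifen-methyl an arylpicolinate.

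AUX/IAA proteins are the repressors of the auxin response. They bind auxin response factors (ARFs) at auxin-responsive promoters and recruit TOPLESS corepressors, and auxin, or a synthetic auxin herbicide, glues them to the TIR1/AFB receptor proteins so that they are ubiquitinated and degraded. Many AUX/IAA genes are themselves targets of the ARFs, so their transcripts rise soon after auxin and refill the pool of repressor. The counts measure transcripts only, not the proteins.

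Libraries held 12588842 to 29111958 counts. Levels are CPM, a library's counts scaled to a common total with TMM factors over the 32 libraries, and levels of different genes are set side by side only as CPM per kb of coding length. Markers of leaf mesophyll (small subunits of Rubisco, antenna proteins and a carbonic anhydrase) had summed levels of 74274 to 113495 CPM in Water at 1 HAT and 46194 to 82240 CPM in Water at 6 HAT. Of 3 listed markers of dividing cells only 1 had a hit, through 1 gene model at 0 in every group, which says little of such cells. At 6 HAT the mesophyll sum was 24568 to 37961 CPM after 2,4-D, 16851 to 26954 CPM after Dicamba and 11825 to 29569 CPM after Halauxifen-methyl, from 8 of 10 matching genes that had counts. The guard cell sum (4 of 7 matching genes with counts) moved the other way, from 9.66 to 16.1 CPM in Water at 6 HAT to 96.6 to 126 CPM, 84.2 to 123 CPM and 50.9 to 90.3 CPM in the same order. The 100 most abundant genes took a median of 47.3% of the counts in Water at 6 HAT and 32.5 to 35.4% after the herbicides. These shifts accompany every 6 HAT difference below, and their part in the results was not tested. At 1 HAT the mesophyll sum was 100212 to 135693 CPM after 2,4-D and 53848 to 100828 CPM after Dicamba. It was 37663 to 111101 CPM after Halauxifen-methyl, and each of these ranges overlapped that of Water. The part of such differences in the 1 HAT results was not tested either. The study itself reported Rubisco small subunit and antenna genes of this mesophyll sum among the photosynthesis genes that every herbicide lowered at 6 HAT. The sum is therefore not a measure of mesophyll cells alone. In RNA from whole leaves, fewer cells of a type and less of these transcripts per cell cannot be told apart.

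The gene models lie on contigs of the draft genome that the study used, and none of the 8 overlaps another model. ATAUX2-11 has 2 coding exons between bases 724 and 1375 of a contig of 1707 bases and no stop codon, so its model is cut short. IAA29 (bases 17925 to 19497, 3 coding exons) and the IAA13 gene HW_32535_g (bases 7349 to 15335, 9 coding exons) lack a start codon. HW_32535_g encodes 575 residues against 318 and 265 for the IAA13 genes HW_49852_g (bases 13133 to 16125) and HW_27084_g (bases 31319 to 35672), and its best hit in NCBI's protein collection is to a UBN2-type domain protein, so its name rests on part of the model and its counts may come partly from a gene outside the family. IAA9 spans bases 2235 to 5215 with 6 coding exons and IAA32 bases 757 to 1428 with 2. SHY2 (bases 19778 to 20478) shares its exon lengths with a second SHY2 model, HW_4405_g, and reads may have been split between them or set aside, so the counts of SHY2 are uncertain.

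Within 1 h of spraying, 3 of the 8 genes were higher than in Water after every herbicide: ATAUX2-11, IAA29 and the IAA13 gene HW_49852_g. They were 3 of the 6 members with enough counts to be tested, and 0 were called lower. In edgeR's quasi-likelihood test, adjusted by Benjamini and Hochberg's method over all genes tested, 0.898% (2,4-D), 1.23% (Dicamba) and 0.176% (Halauxifen-methyl) of those genes were called higher, and 0.919%, 1.19% and 0% lower. Without Water replicate 2 or replicate 3 the share called higher after Halauxifen-methyl was 0.0135% and 0.00676%. The median log2 fold change of the tested members was 1.52, 1.34 and 1.5, against 0.03, 0.00 and 0.00 over all genes tested. By 6 HAT, 7 of 7 tested members were higher after 2,4-D, 6 of 7 after Dicamba and 6 of 7 after Halauxifen-methyl, beside 10.3%, 5.64% and 8.55% of all genes, and 0 members were lower, beside 9.41%, 3.96% and 6.13%. The additional call after 2,4-D is IAA32, at 0 in all Water libraries, which passed the low-count filter only through the 2,4-D libraries, so this tally is a description. The 7 tested members were not the same genes throughout. The 2,4-D fit held IAA32 and not SHY2, and the other fits held SHY2 and not IAA32. SHY2, with at most 9 counts in a Water library, likewise passed the filter only through the herbicide libraries. Median log2 fold changes of the tested members were then 3.70, 3.35 and 3.27, against 0.02, 0.06 and 0.05, and the first was 3.55 with IAA32 at its lower bound. The study listed each of these best hits as changed on these same libraries, so the counts are not independent evidence of direction. The 3 comparisons at each time share the same 4 Water libraries.

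**Figure D1:**
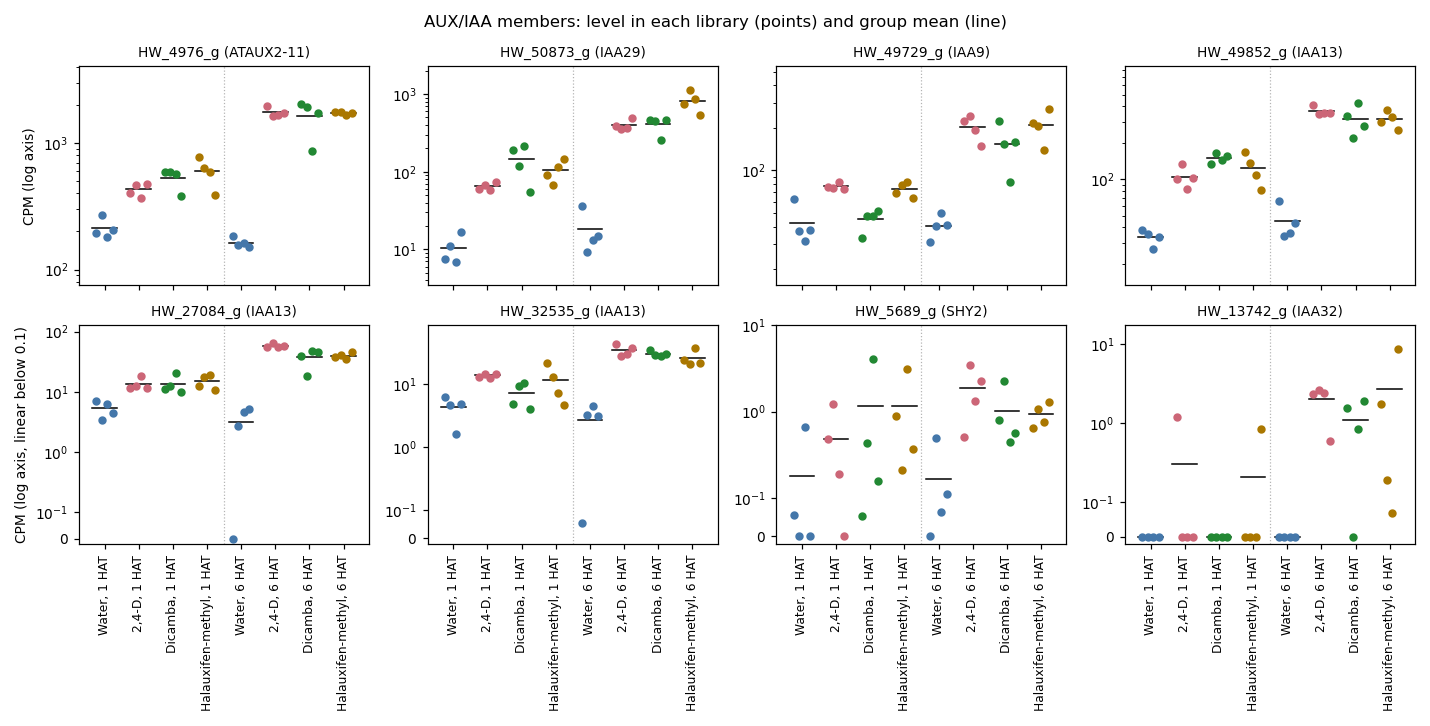
Level of each AUX/IAA gene in every library (CPM on log axes, linear below 0.1 in the lower row) for the 8 groups, with 1 point per library and a line at the group mean. ATAUX2-11 lies between 151 and 183 CPM in Water at 6 HAT and between 861 and 2029 CPM after the herbicides, while IAA32 is at 0 in every Water library.

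ATAUX2-11, the counterpart of Arabidopsis IAA4 and a classical early auxin-induced gene, was the most abundant member in every group. In Water at 1 HAT it stood at 193, 272, 182 and 206 CPM in the 4 libraries. It stood at 406, 471, 371 and 477 CPM after 2,4-D, at 587, 594, 573 and 379 CPM after Dicamba and at 775, 635, 589 and 389.8 CPM after Halauxifen-methyl. Every herbicide library was above every Water library. The log2 fold changes were 1.04 ± 0.17 (SE, adjusted p = 0.0125), 1.33 ± 0.20 (adjusted p = 0.00543) and 1.51 ± 0.24 (adjusted p = 0.0435) by the same test. At 6 HAT the Water libraries held 183, 157, 162 and 151 CPM. The herbicide libraries held 1959, 1628, 1684 and 1735 CPM after 2,4-D, 2029, 1931, 861 and 1746 CPM after Dicamba and 1768, 1776, 1687 and 1732 CPM after Halauxifen-methyl. The levels after the 3 herbicides overlapped each other, at means of 1751, 1642 and 1741 CPM, with 1 Dicamba library, replicate 3, well under the rest. That library was also the lowest of its group for IAA29 (256 CPM) and IAA9 (82.5 CPM). For HW_49852_g it was the highest of its group (429 CPM). Against Water the transcript rose 10.7-fold after 2,4-D (log2 3.43 ± 0.14, adjusted p = 6.77e-08), 10.2-fold after Dicamba (3.35 ± 0.28, adjusted p = 3.70e-05) and 10.6-fold after Halauxifen-methyl (3.41 ± 0.16, adjusted p = 3.76e-06).

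IAA29, an auxin-induced gene that in Arabidopsis also responds to shade, had the largest fold changes at both times, IAA32 apart. Its 4 Water libraries at 1 HAT held 7.47, 10.9, 6.93 and 16.5 CPM. After 2,4-D they held 60.6, 67.2, 57.3 and 74.8 CPM, after Dicamba 189, 119.6, 215 and 55.3 CPM and after Halauxifen-methyl 92.0, 66.6, 115 and 144 CPM. No herbicide library fell within the Water range, and the 4 Dicamba libraries spanned a wider range than the herbicide means of 65.0, 145 and 104 CPM. The log2 fold changes were 2.65 ± 0.29 (adjusted p = 0.000904), 3.79 ± 0.45 (adjusted p = 0.000977) and 3.33 ± 0.35 (adjusted p = 0.00689). At 6 HAT the Water libraries held 36.5, 9.13, 13 and 14.7 CPM, the first of them apart from the others. After 2,4-D the level was 390.0, 357, 363 and 493 CPM, after Dicamba 469, 447, 256 and 469 CPM and after Halauxifen-methyl 752, 1139, 876 and 535 CPM. All 4 Halauxifen-methyl libraries were above all 8 of the other herbicides. The rise over Water was 21.7-fold (log2 4.44 ± 0.41, adjusted p = 1.68e-05), 22.4-fold (4.48 ± 0.45, adjusted p = 0.000105) and 44.4-fold (5.47 ± 0.48, adjusted p = 8.24e-05). Without the first Water library at 6 HAT these log2 values were 5.05, 5.09 and 6.07.

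Of the 3 genes matching IAA13, a repressor related to BODENLOS, which acts in Arabidopsis embryo and root patterning, HW_49852_g carried most of the transcript. Per kb of coding length it made up 79.2 to 88.4% of the sum of the 3 in the 8 group means. It was at 38.4, 35.6, 26.8 and 33.2 CPM in Water at 1 HAT, against 101, 135, 82.4 and 103 CPM after 2,4-D, 134, 166, 145 and 156 CPM after Dicamba and 167, 137, 109 and 81.5 CPM after Halauxifen-methyl. The groups did not overlap with Water, and log2 fold changes were 1.67 ± 0.19, 2.16 ± 0.17 and 1.90 ± 0.24 (adjusted p = 0.00136, 6.65e-05 and 0.0149). At 6 HAT it was at 66.1, 34.3, 35.9 and 43.3 CPM in Water. It was at 411, 347, 353 and 355 CPM after 2,4-D, 334, 222, 429 and 274 CPM after Dicamba and 299, 374, 326 and 257 CPM after Halauxifen-methyl, again with no overlap. The rise was 8.16-, 7.01- and 6.93-fold (adjusted p = 2.95e-06, 9.81e-05 and 7.57e-05).

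The other IAA13 matches had much lower levels in Water, did not pass the test at 1 HAT and rose after every herbicide at 6 HAT. HW_27084_g stood at 7.14, 3.43, 6.36 and 4.36 CPM in Water at 1 HAT and at 9.94 to 20.8 CPM in the 12 herbicide libraries, above every Water library. Its log2 fold changes of 1.37, 1.35 and 1.5 did not pass the test at 1 HAT (adjusted p = 0.0703, 0.0985 and 0.281). In the study's own DESeq2 results on these libraries, its adjusted p at 1 HAT was under 0.05 after every herbicide. At 6 HAT it stood at 0, 2.69, 4.57 and 5.14 CPM in Water, against 55.9, 63.7, 56.2 and 58.3 CPM after 2,4-D, 39.5, 18.0, 46.8 and 45.5 CPM after Dicamba and 37.2, 41.3, 34.7 and 45.8 CPM after Halauxifen-methyl. These rises passed the test, at log2 4.26 ± 0.67, 3.62 ± 0.81 and 3.69 ± 0.78 (adjusted p = 0.000851, 0.0146 and 0.0104). Without the Water library at 0 they were 3.85, 3.2 and 3.28.

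HW_32535_g was at 6.18, 4.76, 1.61 and 4.93 CPM in Water at 1 HAT. It was at 12.8 to 14.8 CPM after 2,4-D, at 4.13 to 10.5 CPM after Dicamba and at 4.77 to 22.0 CPM after Halauxifen-methyl. Only the 2,4-D group lay clear of Water, and none of the log2 fold changes (1.68, 0.72 and 1.44) passed the test (adjusted p = 0.0597, 0.557 and 1.00). The study, with other tests on these same libraries, marked its rise after 2,4-D at 1 HAT as significant. At 6 HAT it was at 0.0555, 3.24, 4.45 and 3.09 CPM in Water and at 28.6 to 43.1, 28.0 to 35.3 and 21.1 to 37.6 CPM after 2,4-D, Dicamba and Halauxifen-methyl. No herbicide library overlapped Water, and the log2 fold changes of 3.70 ± 0.65, 3.53 ± 0.70 and 3.27 ± 0.73 passed the test (adjusted p = 0.00167, 0.00751 and 0.0137). Without the Water library that held 1 count they were 3.30, 3.12 and 2.87. That library, Water replicate 1, also held the 0 of HW_27084_g. Its IAA29 (36.5 CPM) and HW_49852_g (66.1 CPM) levels were the highest in Water at 6 HAT. Without it, calls over all genes in either direction went from 2817 to 3829 after 2,4-D at 6 HAT. They went from 1383 to 1470 after Dicamba and from 2133 to 2636 after Halauxifen-methyl.

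IAA9, a repressor that restrains leaf and fruit growth in tomato, was the tested member whose response at 1 HAT was smallest. In Water it was at 63.2, 37.4, 31.5 and 37.6 CPM, against 76.5, 74.7, 83.1 and 74.0 CPM after 2,4-D, 33, 47.5, 47.9 and 51.7 CPM after Dicamba and 68.9, 78.8, 82.2 and 63.8 CPM after Halauxifen-methyl. The Dicamba libraries lay inside the Water range while the others lay above it, but the log2 fold changes of 0.88, 0.09 and 0.81 did not pass the test (adjusted p = 0.0813, 0.909 and 0.730). The study, with other tests on these same libraries, marked the rise after 2,4-D at 1 HAT as significant. At 6 HAT Water held 30.9, 40.2, 49.9 and 41.3 CPM. The herbicide libraries held 223, 241, 192 and 149 CPM after 2,4-D, 223, 154, 82.5 and 158 CPM after Dicamba and 218, 205, 139 and 272 CPM after Halauxifen-methyl. IAA9 was then 5.0-, 3.87- and 5.15-fold higher than in Water (adjusted p = 6.55e-06, 0.00115 and 0.000162).

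IAA32 and SHY2 were near the limit of detection. IAA32 belongs to a subgroup that in Arabidopsis lacks the degron through which auxin destroys the others. It had 0 counts in all 8 Water libraries and in all 4 Dicamba libraries at 1 HAT, and counts in 1 library each after 2,4-D (20) and Halauxifen-methyl (18). At 6 HAT the 2,4-D libraries had 41, 62, 44 and 11 counts, the Dicamba libraries 31, 0, 15 and 45 and the Halauxifen-methyl libraries 40, 5, 1 and 177. Set against a floor of 3 counts per Water library, the 2,4-D mean lay at least 11.7-fold higher. For Dicamba the bound was at least 6.35-fold higher and for Halauxifen-methyl at least 15.7-fold higher. edgeR's quasi-likelihood test called the 2,4-D rise (adjusted p = 0.00592), in a fit that IAA32 entered only because the 2,4-D libraries themselves had counts. Under the count filter of the other comparisons, exact permutation tests on CPM gave p = 0.143 after Dicamba and p = 0.0286, the smallest that 4 against 4 libraries allow, after Halauxifen-methyl. The Halauxifen-methyl mean of 2.69 CPM rests on 1 library at 8.75 CPM.

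SHY2, the counterpart of Arabidopsis IAA3, held 1, 0, 7 and 0 counts in Water at 1 HAT and 0, 9, 1 and 2 in Water at 6 HAT. At 6 HAT the 2,4-D libraries held 9, 81, 24 and 42 counts, the Dicamba libraries 16, 50, 8 and 13 and the Halauxifen-methyl libraries 15, 28, 11 and 26. By CPM the 2,4-D and Halauxifen-methyl libraries lay above all Water libraries, while 1 Dicamba library lay inside their range. The mean was 1.90 CPM after 2,4-D against 0.167 CPM in Water (two-sided exact permutation test, p = 0.0286). The log2 fold changes after Dicamba (2.60, adjusted p = 0.331) and Halauxifen-methyl (2.45, adjusted p = 0.215) did not pass edgeR's test. At 1 HAT the exact p-values were 0.457, 0.486 and 0.171.

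**Figure D2:**
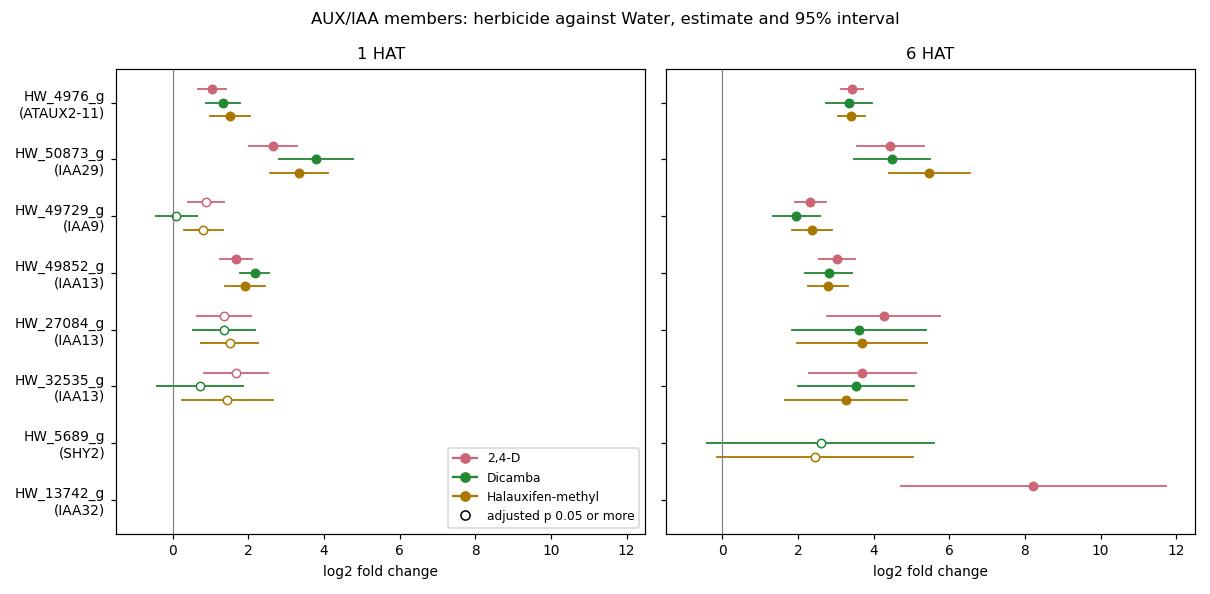
Log2 fold change against Water of the same time for each AUX/IAA gene and herbicide at 1 and 6 HAT, with 95% intervals from edgeR's quasi-likelihood fit and open points where the adjusted p was 0.05 or more. IAA32 after 2,4-D is drawn at its fitted 8.22, which depends on the prior count because Water is at 0. At 1 HAT the tested values run from 0.09 (IAA9 after Dicamba) to 3.79 (IAA29 after Dicamba), and at 6 HAT IAA29 after Halauxifen-methyl stands at 5.47.

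At 1 HAT only 25 genes in all were called after Halauxifen-methyl, and leaving out Water replicate 2 or replicate 3 left 0 of the 3 members called, while leaving out Halauxifen-methyl replicate 1 or replicate 3 left 1. Leaving out Water replicate 3 also ended the call of ATAUX2-11 (HW_4976_g) after 2,4-D (log2 0.97, adjusted p = 0.0579).

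The members also took a larger share of the AUX/IAA transcript. Summed over the 25 genes with an AUX/IAA hit, the level was 1579 ± 223 CPM per kb (SD, n = 4) in Water at 1 HAT and 1369 ± 135 in Water at 6 HAT. It reached 7154 ± 503 after 2,4-D, 6800 ± 1222 after Dicamba and 8085 ± 772 CPM per kb after Halauxifen-methyl at 6 HAT. The 8 genes gave 31.3 and 30.9% of that sum in Water at 1 and 6 HAT, 45.1 to 45.5% after the herbicides at 1 HAT and 64.4, 62.3 and 65.0% at 6 HAT. ATAUX2-11 alone went from 22.2% in Water at 6 HAT to 45.3, 43.7 and 40.1%, and IAA29 from 2.29 to 9.83, 10.5 and 17.7%. These shares are descriptions without a test, since the members include genes picked because they rose.

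**Figure D3:**
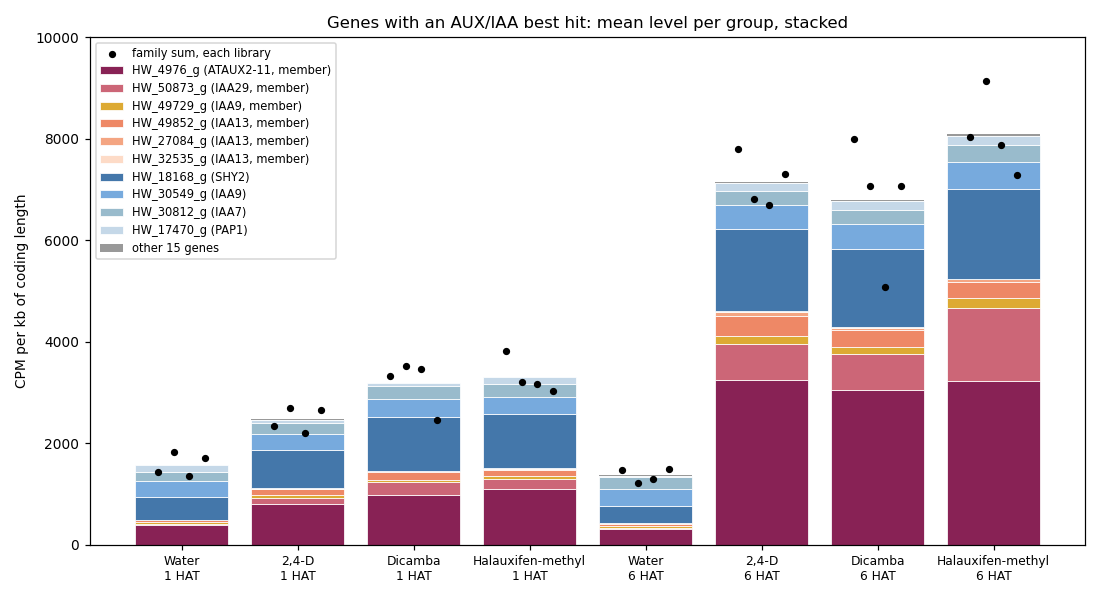
Mean level of the AUX/IAA-hit genes in each of the 8 groups (CPM per kb of coding length, stacked by gene, n = 4 libraries a group). The stack stands at 1579 in Water at 1 HAT and at 8085 after Halauxifen-methyl at 6 HAT, and the 8 genes described here make up 30.9% of it in Water at 6 HAT and 65.0% after Halauxifen-methyl.

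Ordered by CPM per kb, ATAUX2-11 came first in all 8 groups and its range never overlapped that of the next gene. In Water it was followed by IAA9 and HW_49852_g, which overlapped, and then by IAA29, which overlapped the gene above it at both times. After every herbicide IAA29 came second. At 1 HAT its range overlapped that of HW_49852_g after each herbicide. At 6 HAT the ranges did not overlap, with means of 703, 720 and 1448 CPM per kb against 383, 329 and 328 for HW_49852_g. After Dicamba they almost met, at 448.6 for IAA29 and 448.3 for HW_49852_g, both in replicate 3. The ratio of IAA29 to ATAUX2-11, per kb, was 0.103 ± 0.0591 (SD) in Water at 6 HAT and 0.217 ± 0.0354, 0.244 ± 0.0302 and 0.449 ± 0.134 after the herbicides, and the Water and 2,4-D ranges overlapped.

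Between herbicides at 1 HAT, no member was called different in any of the 3 pairs, where 0.208% (2,4-D against Dicamba), 0.475% (2,4-D against Halauxifen-methyl) and 0.355% (Dicamba against Halauxifen-methyl) of all genes were called in either direction. Of the 6 members tested in each pair, 4, 1 and 1 had an unadjusted p under 0.05. Of all genes tested, 2323 of 14398, 1184 of 14535 and 934 of 14365 did, so 1 member in a pair says nothing particular of the members. The widest gaps were in 2,4-D against Dicamba. There IAA29 was lower after 2,4-D by a log2 difference of -1.14 (95% interval -1.90 to -0.38, adjusted p = 0.154), HW_32535_g higher by 0.95 (0.18 to 1.73, adjusted p = 0.224) and IAA9 higher by 0.79 (0.40 to 1.18, adjusted p = 0.0936). In this pair the share of all genes called ran from 0.0333% without Dicamba replicate 2 to 1.66% without 2,4-D replicate 2. The intervals of 3, 4 and 3 members lay within 1 log2 unit of 0.

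At 6 HAT the pairs were tested for all 8 members. None was called between 2,4-D and Dicamba or between Dicamba and Halauxifen-methyl, where 0.519% and 0.489% of all genes were called in either direction. In each of these pairs 1 member had an unadjusted p under 0.05, beside 1210 of 14462 and 1374 of 14719 genes tested. Between 2,4-D and Halauxifen-methyl 2 of 8 members were called, beside 8.04% of all genes. IAA29 was lower after 2,4-D, by -1.04 (95% interval -1.51 to -0.57, adjusted p = 0.0126), and the IAA13 gene HW_27084_g was higher, by 0.55 (0.25 to 0.86, adjusted p = 0.0352). IAA29 was also lower after Dicamba than after Halauxifen-methyl, by -0.97 (-1.57 to -0.37), which missed the threshold (adjusted p = 0.217). ATAUX2-11 differed by 0.07, 0.00 and -0.05 in the 3 pairs. The 2 calls were lost when all 32 libraries shared 1 fit (adjusted p = 0.140 and 0.832) and with 2,4-D replicate 2 or replicate 3 left out. Leaving out 2,4-D replicate 1 or replicate 4, or Halauxifen-methyl replicate 1, 2 or 3, left 1 call.

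**Figure D4:**
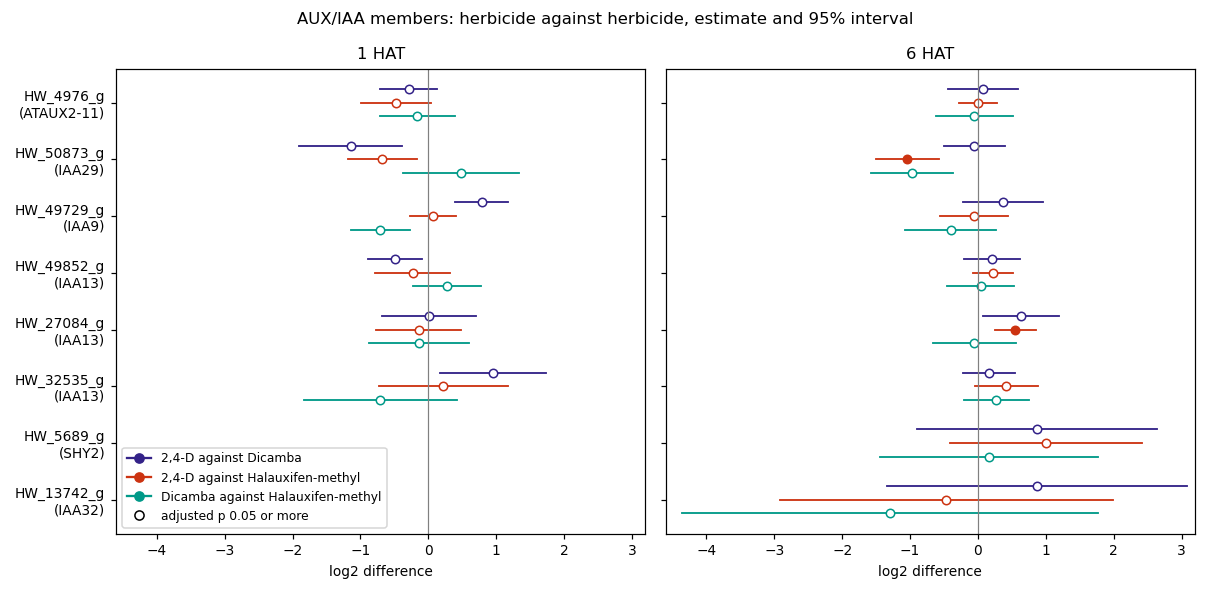
Log2 differences between herbicides for the tested AUX/IAA genes at 1 and 6 HAT, with 95% intervals from edgeR's quasi-likelihood fit and called differences marked. The 2 calls are IAA29 (-1.04) and HW_27084_g (0.55) in 2,4-D against Halauxifen-methyl at 6 HAT.

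The response grew between 1 and 6 HAT in several members, tested as the herbicide-by-time interaction. For 2,4-D it was called in 5 of the 8 members fitted (9.5% of all genes in either direction), all towards a larger rise at 6 HAT: HW_27084_g by 2.91, ATAUX2-11 by 2.40, IAA29 by 1.80, IAA9 by 1.46 and HW_49852_g by 1.37 on the log2 scale. For Dicamba it was called in 2 of 7 (5.17% of all genes), ATAUX2-11 by 2.03 ± 0.34 and IAA9 by 1.87 ± 0.39. For Halauxifen-methyl it was called in 3 of 7 (5.49% of all genes), IAA29 by 2.15 ± 0.55, ATAUX2-11 by 1.90 ± 0.28 and IAA9 by 1.55 ± 0.34. The IAA29 rise of 0.71 ± 0.60 after Dicamba did not pass (adjusted p = 0.688), and whether it differs from the other 2 herbicides was not tested. Leaving out 2,4-D replicate 4 at 6 HAT left 3 of the 5 calls, and leaving out Water replicate 1 at 6 HAT raised the Halauxifen-methyl count to 5. The 2,4-D fit includes IAA32, whose interaction value has no usable error because both Water groups were at 0.

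In the Water leaves, none of the 6 tested members was called different between 6 and 1 HAT, while 13.9% of all genes were. The interval of ATAUX2-11 excluded 0 (log2 -0.41, 95% interval -0.77 to -0.04, unadjusted p = 0.0336) but its adjusted p was 0.151. For IAA29 the difference was 0.80 (-0.22 to 1.82) and for IAA9 -0.09 (-0.61 to 0.43).

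The other 17 AUX/IAA-hit genes mostly had few or no counts. Of them 5 had 0 counts in every library, 4 of which have another model with the same exon lengths, where reads may have been set aside as for SHY2. Another 5 had 1 to 50 counts in all, and 6 passed the filter. At 6 HAT 5 of the 6 were called higher after 2,4-D and 4 after each of the other herbicides, and 0 lower, beside the same shares of all genes as for the members. At 1 HAT 1 of them was called higher and 1 lower after Dicamba, beside 1.23% and 1.19% of all genes. The other herbicides gave 0 calls, with 2 genes each at an unadjusted p under 0.05. Of all genes tested, 1684 of 14261 after 2,4-D and 511 of 14207 after Halauxifen-methyl had such a p. These counts are a description, with no test of the list.

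A second SHY2 match, HW_18168_g, had the highest level of these per kb after the herbicides. It held 141, 156, 164 and 218 CPM in Water at 6 HAT, 690.2 to 862 CPM after 2,4-D, 663 to 816 CPM after Dicamba and 746 to 979.8 CPM after Halauxifen-methyl. Its log2 fold changes were 2.23, 2.16 and 2.34 (adjusted p = 1.91e-06, 3.59e-05 and 4.44e-05), and at 1 HAT they were 0.78 (adjusted p = 0.123), 1.22 (0.0153) and 1.26 (0.0931). It was not called different between any herbicides at 1 HAT. A second IAA9 match, HW_30549_g, was 336 ± 28.4 CPM in Water at 6 HAT and 487 ± 16.6, 517 ± 48.6 and 545 ± 41.3 CPM after the herbicides, a log2 rise of 0.54, 0.63 and 0.69. The ratio of the IAA9 member to this gene, per kb, went from 0.109 in Water at 6 HAT to 0.370, 0.263 and 0.348.

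Genes matching PAP1, also called IAA26 and first known as a partner of phytochrome, moved in both directions. HW_17470_g fell after Dicamba at 1 HAT (log2 -1.11, adjusted p = 0.0365) and between 1 and 6 HAT in Water (-2.20, adjusted p = 0.00291), and rose after every herbicide at 6 HAT (2.25, 2.39 and 2.45). HW_36374_g, which has another model 43 bases away, rose to 11.3, 11.7 and 15 CPM from 2.74 CPM in Water at 6 HAT (log2 2.04, 2.1 and 2.44). The IAA13 match HW_44864_g was called after 2,4-D at 6 HAT (1.51, adjusted p = 0.0478), and the IAA7 match HW_30812_g was not called in any comparison with Water.

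Of the genes whose products bind AUX/IAA proteins, some were also called. At 6 HAT, of 7 tested TIR1/AFB receptor genes (17 in the table) 1 was higher and 1 lower after 2,4-D, 0 after Dicamba and 1 lower after Halauxifen-methyl. Of the ARF genes (40, of which 21, 22 and 22 tested) 5, 2 and 2 were higher and 1, 1 and 1 lower. Of 9 tested TOPLESS genes (13 in the table) 3, 1 and 2 were higher. Of all genes 10.3%, 5.64% and 8.55% were higher and 9.41%, 3.96% and 6.13% lower, and with so few genes these counts say nothing particular of the lists. ARF19 (HW_54012_g), an activator of auxin-responsive genes, rose by log2 1.53, 1.34 and 1.45, ETT (HW_10100_g), a repressive ARF, by 0.48, 0.82 and 0.84, and TPL (HW_46581_g), the TOPLESS corepressor, by 1.49, 1.54 and 1.21. ARF8 (HW_35548_g), which acts in growth and flower development, fell by 2.59, 2.29 and 2.36. Each of these changes had an adjusted p of at most 0.0219 by edgeR's quasi-likelihood test.

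Across the 32 libraries the members varied together. The Pearson r of each member's log2 CPM with the mean of the others was 0.949 for ATAUX2-11, 0.902 for IAA9, 0.897 for HW_49852_g, 0.881 for IAA29, 0.859 for HW_27084_g, 0.838 for HW_32535_g, 0.67 for IAA32 and 0.631 for SHY2. These libraries share the treatment groups, so the values describe the groups as much as the plants. Among 17352 genes, the 5 outside the family most like the mean profile were HW_18257_g (AT3G47680, a DNA-binding protein; r = 0.956), LBD16 (HW_34479_g, a lateral organ boundaries factor; 0.945), GH3.1 (HW_53227_g, a GH3-family auxin response gene; 0.943), BRH1 (HW_48496_g; 0.937) and DFL1 (HW_43852_g, another GH3-family gene; 0.930). LBD16 held 0.22 CPM in Water at 6 HAT and 42.3, 27.8 and 24.4 CPM after 2,4-D, Dicamba and Halauxifen-methyl. GH3.1 held 0.938 CPM in Water and 178, 126 and 136 CPM after the herbicides.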

How the data were processed

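Leaf RNA of 32 *E. canadensis* plants was sequenced, 4 libraries for each of 4 treatments at 1 and 6 HAT. The labels do not say whether replicate numbers pair libraries across groups. The authors trimmed reads (Phred 30, at least 50 bases) after FastQC 0.11.2, aligned them to a draft genome with STAR 2.5.2b and counted them per GeneMark gene model with HTSeq 0.6.1; strand setting and counting mode are not given in the sources used here. What the authors deposited is an unnormalized table of read counts, with the best Arabidopsis hit of each model. Totals were 12588842 to 29111958 counts per library, and precision is limited for genes with few counts. None of the 48 pairs of libraries within a group was a duplicate, and libraries of different groups were not checked for this.

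Each comparison was fitted on its own libraries with edgeR 4.0.16 in R 4.3.3 (TMM, low-count filter with minimum 10, quasi-likelihood test), with Benjamini-Hochberg adjustment over all genes tested and a threshold of 0.05. Members below the filter were tested by a two-sided exact permutation test on CPM. Log2 CPM for likeness used a prior count of 2. The fits were tested on simulated data. Alternatives were the edgeR exact test, DESeq2 1.42.0 (test and size factors), no filter and a stricter one, all libraries in 1 fit, a replicate block and each library left out. Members, lists and tests were chosen with earlier results of these data known. Genes named are the 8 members, other AUX/IAA hits called in at least 1 comparison with Water, binding partners called alike after all 3 herbicides at 1 time, and the 5 genes most like the mean member profile; HW_30812_g and HW_4405_g were added after their values were seen. P-values set a difference between groups against the spread between libraries, each from 1 leaf of a separate plant.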

Additional observations from a re-analysis of the deposited data

Results flagged for a closer look

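In 9 of 61 combinations of a member and a group with a range above 0, 1 library stood apart from the other 3. The rule flags about 1 in 20 by chance only where values are normally distributed. Genes with few counts do not meet this, since a library with counts beside 3 at 0 is always flagged. The 9 are therefore a description, and an excess over chance was not tested. ATAUX2-11 was at 379 CPM in Dicamba replicate 4 at 1 HAT, against 573 to 594 CPM in the others. IAA29 was at 256 CPM in Dicamba replicate 3 at 6 HAT, against 447 to 469 CPM, and HW_49852_g at 411 CPM in 2,4-D replicate 1 at 6 HAT, against 347 to 355 CPM. HW_27084_g was at 18.6 CPM in 2,4-D replicate 3 at 1 HAT, against 11.5 to 12.3 CPM. The rest were genes with few counts. IAA32 was at 1.21 CPM in 2,4-D replicate 1 and at 0.841 CPM in Halauxifen-methyl replicate 4 at 1 HAT, with 0 in the other libraries, and at 0.588 CPM in 2,4-D replicate 4 at 6 HAT, against 2.33 to 2.68 CPM. SHY2 was at 0.665 CPM in Water replicate 3 at 1 HAT, against 0 to 0.0562 CPM, and at 4.02 CPM in Dicamba replicate 3 at 1 HAT, against 0.0533 to 0.43 CPM.

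The fold change against Water differed between 1 and 6 HAT in 10 member interactions, called by edgeR's quasi-likelihood test and all towards a larger rise at 6 HAT. For 2,4-D these were HW_27084_g (2.91), ATAUX2-11 (2.40), IAA29 (1.80), IAA9 (1.46) and HW_49852_g (1.37). For Dicamba they were ATAUX2-11 (2.03) and IAA9 (1.87), and for Halauxifen-methyl IAA29 (2.15), ATAUX2-11 (1.90) and IAA9 (1.55), all on the log2 scale.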

How the results depend on the processing

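Over alternatives other than a left-out library, 99 of 109 counts of called members stayed within 1.5 times of the value reported, and 139 of 152 did with a library left out. After 2,4-D at 1 HAT the count of 3 became 6 with the edgeR exact test, 6 with DESeq2 and 5 without the filter. The share of all genes called higher was then 1.42%, 1.5% and 0.716%, against 0.898% as reported. At 6 HAT it went from 7 to 4 with at least 10 counts required in every library, which leaves 4 members tested (13.4% of all genes higher). The pair 2,4-D against Dicamba at 1 HAT went from 0 to 1 (exact test), 2 (DESeq2) and 2 (no filter). Of all genes 3.19%, 5.68% and 1.93% were then called in either direction, against 0.208% as reported. Dicamba against Halauxifen-methyl at 6 HAT went from 0 to 1 (DESeq2), beside 2.29% of all genes against 0.489% as reported. The pair 2,4-D against Halauxifen-methyl at 6 HAT went from 2 to 0 with all 32 libraries in 1 fit and to 0 with the replicate block. Of all genes 3.38% and 4.27% were then called, against 8.04% as reported. With a library left out, counts ranged from 0 to 3 (Halauxifen-methyl at 1 HAT), 0 to 2 (2,4-D against Halauxifen-methyl at 6 HAT), 3 to 6 (2,4-D interaction) and 2 to 5 (Halauxifen-methyl interaction). The matching shares of all genes ranged from 0.00676 to 0.23%, 4.68 to 11.8%, 7.33 to 10.3% and 3.71 to 5.79%. The cause of these changes was not tested.

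Of the members' log2 values, 676 kept their direction and side of the threshold under the other alternatives, 22 passed the threshold newly, 7 no longer passed it and 3 turned, all 3 uncalled and with the replicate block: IAA32 in 2,4-D against Halauxifen-methyl at 6 HAT (1.37), SHY2 in Dicamba against Halauxifen-methyl at 6 HAT (-0.088) and SHY2 in the Dicamba interaction (0.676). Same-numbered libraries correlated at -0.237 to 0.339, and in 0 of 13 comparisons was every pair over 0.1. Pairs over 0.1 numbered 3 in Dicamba against Halauxifen-methyl at 6 HAT and 0 in 2,4-D against Dicamba at 1 HAT. Differently numbered libraries were not compared, so these values cannot settle whether replicate numbers pair the libraries. The block moved calls over all genes from 30 to 196 in 2,4-D against Dicamba at 1 HAT. In 2,4-D against Water at 6 HAT it moved them from 2817 to 2089. With the block, IAA32 (HW_13742_g) after 2,4-D at 6 HAT had an adjusted p of 0.0881 and ATAUX2-11 (HW_4976_g) after Halauxifen-methyl at 1 HAT one of 0.0539 (0.0511 with DESeq2 size factors). Over all genes DESeq2 gave more calls, counted in either direction, than reported: at 1 HAT against Water 672 (259 reported) for 2,4-D, 944 (343) for Dicamba and 84 (25) for Halauxifen-methyl, and at 6 HAT 2165 (1383) for Dicamba. Between herbicides it gave 934 (30), 311 (69) and 202 (51) at 1 HAT and 274 (75), 1835 (1175) and 377 (72) at 6 HAT. With a library left out, 39 uncalled log2 values turned, in these ranges. IAA9 ran from -0.021 to 0.345 after Dicamba at 1 HAT, from -0.219 to 0.118 in 2,4-D against Halauxifen-methyl at 6 HAT and from -0.208 to 0.171 in Water over time. HW_27084_g ran from -0.17 to 0.313 (2,4-D against Dicamba), -0.319 to 0.00 (2,4-D against Halauxifen-methyl) and -0.441 to 0.01 (Dicamba against Halauxifen-methyl) at 1 HAT, and from -0.184 to 0.173 in the last pair at 6 HAT. HW_32535_g ran from -0.014 to 0.701 in 2,4-D against Halauxifen-methyl at 1 HAT. At 6 HAT, ATAUX2-11 ran from -0.141 to 0.189, -0.055 to 0.072 and -0.166 to 0.16 in the 3 pairs, IAA29 from -0.225 to 0.017 in 2,4-D against Dicamba, and HW_49852_g from -0.15 to 0.17 in Dicamba against Halauxifen-methyl. IAA32 ran from -0.862 to 1.564 in 2,4-D against Halauxifen-methyl and from -1.732 to 0.705 in Dicamba against Halauxifen-methyl, where SHY2 ran from -0.604 to 0.401. SHY2 interactions ran from -0.635 to 3.464 (2,4-D), -2.826 to 2.321 (Dicamba) and -2.941 to 1.177 (Halauxifen-methyl). The depth, with at most 81 counts in a library for SHY2 and 177 for IAA32, limits both genes.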
